A study of Mus musculus with 8 samples.

Results

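The 38 genes described here carry out homologous recombination, the Fanconi anemia pathway and the checkpoint signalling tied to both. They were taken as a fixed list of mouse symbols, chosen with earlier results of these data known. Every symbol was matched to an Entrez gene of the deposited count table, which holds 23403 genes. The RNA came from Hepa-1c1c7 (Hepa-1), an established mouse hepatoma line. The comparison had 2 libraries per group: cells given 25 µM Cr(VI), written CrK2O4 in the labels, for 90 minutes, and control cells without chromium, for which the labels do not name the passage number. All 4 libraries come from the same line, and no source used here says whether the replicates were separate cultures, so the p-values may measure technical spread only. FAIRE, an assay of DNA that is free of bound protein after crosslinking, gave a list of peaks for the same acute treatment and another for cells grown over 20 passages with Cr(VI) at 0.5 µM, each from 1 treated and 1 control library. RNA of the long-term regimen was not analysed here.

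Homologous recombination repairs broken or stalled chromosomes by copying the sister chromatid. The MRE11 complex senses the break and starts to trim the ends, BRCA1 and BRCA2 with their partners load the strand-exchange recombinase, and helicases and nucleases resolve the joined molecules. The Fanconi pathway unhooks DNA crosslinks: a core complex attaches ubiquitin to the FANCD2 and FANCI pair, which then brings in nucleases and recombination proteins. These pathways work mainly in dividing cells, in S and G2 phase, and the kinases ATM and ATR signal their activity to the cell cycle. Reduced chromium binds DNA and is known to block replication, a type of damage that these pathways handle.

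The libraries held 32319676 to 37696116 counts. All 38 genes passed the filter on low counts, which left 13619 genes for testing. Treated replicates resembled each other less than controls did: 1404 tested genes differed by more than 2-fold between the treated libraries and 83 between the controls. Of 9 hepatocyte markers, Alb, Afp and Foxa2 were above 50 CPM (counts scaled to library size) in all libraries, and 4 were under 1 CPM throughout. The summed level of these 9 markers was 1109 and 1154 CPM in control and 3895 and 3797 CPM in treated libraries. Alb made up most of it, while Afp had a log2 fold change of 0.034. Of the 7 tested markers, 3 were called higher and 0 lower. They were Alb, Apob and Ttr, with log2 fold changes of 1.96, 4.53 and 2.46. Apob and Ttr were under 1 CPM in both controls. Among the markers of other cell types, Ptprc, Cdh5 and Thy1 were at or near 0. Pecam1, an endothelial marker, was called higher from a low level, with 0.489 and 0.486 CPM in the controls and 1.77 and 2.24 CPM in the treated libraries. Dcn and Col1a1, which are fibroblast markers, and Csf1r and Cd14, which are macrophage markers, were above 35 CPM throughout. In bulk RNA, fewer cells of a type and less RNA per cell cannot be told apart. The 6 fibroblast markers summed to 655 and 665 CPM in control and to 1207 and 1373 CPM in treated libraries, most of it from Dcn and Col1a1, while Pdgfra had a log2 fold change of −0.47 and Col3a1 of −0.010. The part of these shifts in the repair genes' values was not tested.

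Most of the 38 genes had lower mRNA levels after 90 minutes in 25 µM Cr(VI), by modest amounts, and very few differences passed the test. This describes the list and not the whole pathway. The median log2 fold change was −0.094 over 29 other recombination genes and −0.12 over 16 other Fanconi and crosslink genes. Both treated libraries lay below both controls for 27 of the 38 genes and above both for 2, Rad52 and Atrip. Over all tested genes the corresponding shares were 34.0% and 32.2%. The median log2 fold change of the 38 genes was −0.39, with a range from −1.08 to 0.73, against a median of −0.0047 over all tested genes. With a negative value for 33 of the 38 genes, only Fanci fell by edgeR's quasi-likelihood test at a Benjamini-Hochberg adjusted p under 0.05, written edgeR adjusted p from here on. That is 1 gene of 38, where 2.85% of all tested genes were called lower and 4.63% were called in either direction. At an unadjusted p under 0.05 in the same test, 14 of the 38 genes were lower, where 15.1% of all tested genes were. Only 1, Rad52, was higher, where 2124 of all 13619 tested genes were. DESeq2 called 4 of the 38 lower, namely Rad54l, Fancd2, Fanci and Atm, where it called 7.07% of its 14531 genes lower. The calls depended on the libraries used. Without control replicate 1 or without control replicate 2 no member was called. Leaving out treated replicate 1 gave 33 called members, where 77.6% of all tested genes were called, and leaving out treated replicate 2 gave 27, where 67.2% were, in fits where the only spread is that between the controls and the lone treated library is assumed to vary like them. The exact permutation test of 2 against 2 libraries cannot go below a two-sided p of 0.333 and was not used.

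**Figure D1:**
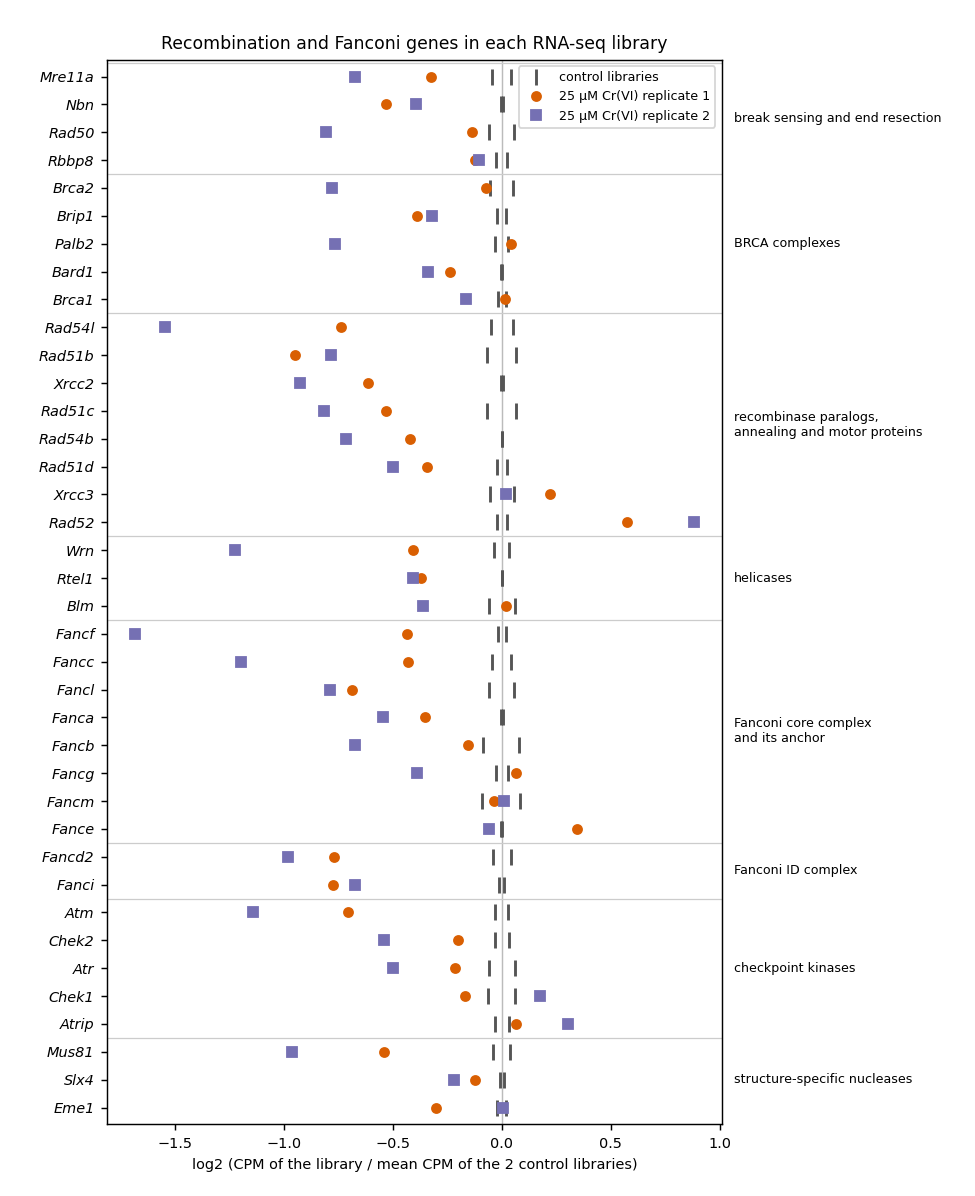
Normalized CPM of each of the 38 genes in each RNA-seq library, as log2 of its ratio to the mean of the 2 controls, with genes grouped by role. Bars mark the controls, circles treated replicate 1 and squares treated replicate 2; for 27 genes both treated symbols lie left of both control bars, and for Rad52 and Atrip both lie right.

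The FANCD2 and FANCI pair, the substrate that the Fanconi core complex marks with ubiquitin, had lower levels in both treated libraries. Fanci (chromosome 7 from 79392312 to 79450266) had 70.4 and 69.3 CPM in the controls and 40.8 and 43.8 CPM in the treated libraries. The treated libraries lay far below the controls and close to each other. Its log2 fold change was −0.72 (SE 0.11, edgeR adjusted p = 0.0465), a treated level of 0.606 times the control. The call was lost with DESeq2's size factors inside edgeR (adjusted p = 0.0506) and when control replicate 1 (adjusted p = 0.460) or control replicate 2 (adjusted p = 0.428) was left out of the edgeR fit, while the fold change stayed between −0.84 and −0.66 over all alternatives. Exons of Polg on the opposite strand overlap Fanci over 665 bp, and the use of strand in counting is not given in the sources used here.

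Fancd2 (chromosome 6 from 113531640 to 113597020) had 29.9 and 28.2 CPM in the controls and 17.0 and 14.7 CPM in the treated libraries. The groups did not overlap, and the log2 fold change was −0.87 (SE 0.15), which just missed the threshold (edgeR adjusted p = 0.0551; DESeq2 adjusted p = 0.00530). Fancd2os, on the opposite strand, shares 260 bp of exon with it.

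Among the 8 genes of the core complex and its anchor none was called, and 5 had both treated libraries below both controls. The 8 log2 fold changes had a median of −0.42 and spanned −0.92 to 0.16. Fancf, a gene with a very short span that codes for an adaptor of the complex, had the lowest value. It had 6.24 and 6.39 CPM in the controls, and 4.67 and 1.97 CPM in treated replicates 1 and 2. Both treated values were lower, but they differed by more than 2-fold from each other, and the log2 fold change of −0.92 (SE 0.44, edgeR adjusted p = 0.236) became −0.44 without treated replicate 2 and −1.67 without treated replicate 1. Exons of Gas2 on the opposite strand overlap Fancf over 477 bp. Fancl, the ubiquitin ligase subunit, was steadier, with a log2 fold change of −0.74 (SE 0.17, edgeR adjusted p = 0.0834). Exons of Vrk2 on the opposite strand overlap Fancl over 389 bp. Fance, the subunit that binds FANCD2, had 13.2 CPM in each control and 16.8 and 12.7 CPM in the treated libraries, which fell on either side of the controls. Its log2 fold change was 0.16 (SE 0.20, edgeR adjusted p = 0.616) and turned to −0.046 without treated replicate 1, against 0.34 without treated replicate 2 and 0.058 at library size only. Fancm, the translocase that anchors the complex to DNA, stayed within the range of the controls at 14.0 and 14.5 CPM.

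The 4 genes of break sensing and end resection all had both treated libraries below both controls, with log2 fold changes from −0.49 for Mre11a, the nuclease, to −0.12 for Rbbp8, whose product CtIP starts resection. None of the 4 was called. Rad50 showed the widest gap between treated libraries in this group, with 42.0 and 26.4 CPM against 48.1 and 44.3 CPM in the controls.

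Brca1, Brca2 and Palb2 were near the controls in treated replicate 1. Brca1 (chromosome 11 from 101488761 to 101551955), which codes for a ubiquitin ligase that promotes resection and recombinase loading, had 57.0 and 55.4 CPM in the controls and 56.8 and 50.1 CPM in the treated libraries. These values overlap, and the log2 fold change was −0.072 (SE 0.12, edgeR adjusted p = 0.713), or 0.014 without treated replicate 2, −0.15 without treated replicate 1, −0.11 without control replicate 2 and −0.18 at library size only. Brca2 (chromosome 5 from 150522297 to 150570147), whose product loads the recombinase, had 37.0 and 34.3 CPM in the controls and 33.9 and 20.7 CPM in the treated libraries. Only treated replicate 2 stood clearly apart, and the log2 fold change was −0.38 (SE 0.26, edgeR adjusted p = 0.379), or −0.072 without that library and −0.77 without treated replicate 1. Palb2, which joins BRCA1 to BRCA2, had the same pattern, at 13.2 CPM in treated replicate 1 and 7.53 CPM in treated replicate 2 against 13.1 and 12.5 CPM in the controls. Bard1, the partner of BRCA1, and Brip1, a helicase that binds it, had log2 fold changes of −0.29 and −0.35, with both treated libraries below both controls.

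The recombinase paralogs, annealing factors and motor proteins held both ends of the range. Rad54l (chromosome 4 from 116094261 to 116123700), a motor protein that drives strand invasion, had 26.7 and 28.6 CPM in the controls and 16.6 and 9.49 CPM in the treated libraries. Its log2 fold change of −1.08 (SE 0.30, edgeR adjusted p = 0.106; DESeq2 adjusted p = 0.00715) was the lowest of the 38 genes. Leaving out treated replicate 2 gave −0.74 and leaving out treated replicate 1 gave −1.54. Exons of Lrrc41 on the opposite strand overlap it over 1250 bp. Rad51b (chromosome 12 from 79297282 to 79848260), a paralog that assists recombinase loading, had 4.66 and 4.25 CPM in the controls and 2.31 and 2.59 CPM in the treated libraries. The treated libraries were close to each other and below both controls, with a log2 fold change of −0.86 (SE 0.21, edgeR adjusted p = 0.0915). Xrcc2, Rad51c, Rad54b and Rad51d also had both treated libraries below both controls, with log2 fold changes of −0.76, −0.66, −0.56 and −0.42. Rad54b shares 4227 bp of exon with other genes, most of it with Fsbp on the same strand, and its counts are uncertain for that reason. In all, 14 of the 38 genes share exon bases with another gene. Rad51c rests on only 19 to 43 counts per library.

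Rad52 (chromosome 6 from 119901722 to 119922827), which anneals complementary single strands, had the highest log2 fold change of the list. Its levels were 7.68 and 7.93 CPM in the controls and 11.6 and 14.4 CPM in the treated libraries, so that both treated libraries lay above both controls. The log2 fold change was 0.73 (SE 0.19, edgeR adjusted p = 0.0943) and stayed between 0.57 and 0.89 over all alternatives. Xrcc3, the remaining paralog, had 10.2 and 10.998 CPM in the controls and 12.4 and 10.7 CPM in the treated libraries. These overlap, with a log2 fold change of 0.12 (SE 0.17, edgeR adjusted p = 0.649), which was 0.027 without treated replicate 1, 0.22 without treated replicate 2, 0.050 without control replicate 1 and 0.020 at library size only. Of its exons, 1753 bp also belong to Klc1 on the opposite strand.

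Of the helicases, Wrn, the RecQ helicase lost in Werner syndrome (chromosome 8 from 33234372 to 33385543), had 16.1 and 15.4 CPM in the controls and 11.9 and 6.73 CPM in the treated libraries. Both treated values were lower but far apart, with a log2 fold change of −0.76 (SE 0.31, edgeR adjusted p = 0.188), which became −0.41 without treated replicate 2 and −1.21 without treated replicate 1. Rtel1 (chromosome 2 from 181319711 to 181356616), which unwinds displacement loops and protects telomeres, had 75.4 and 75.5 CPM in the controls and 58.3 and 56.8 CPM in the treated libraries. Within each group its libraries agreed closely, and its log2 fold change of −0.39 had the smallest SE of the 38 genes (0.10, edgeR adjusted p = 0.0962). Blm, the RecQ helicase that dissolves joined molecules, had a log2 fold change of −0.16 with overlapping groups.

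The checkpoint kinases and their partner differed in sign. Atm (chromosome 9 from 53437122 to 53536828), the kinase activated by DNA ends, had 26.3 and 25.2 CPM in the controls and 15.8 and 11.7 CPM in the treated libraries. Both treated libraries were well below both controls, with a log2 fold change of −0.91 (SE 0.20, edgeR adjusted p = 0.0750; DESeq2 adjusted p = 0.00890). Atr (chromosome 9 from 95857597 to 95953217), which responds to stretches of unpaired DNA at stalled forks, had 20.3 and 18.7 CPM in the controls and 16.8 and 13.8 CPM in the treated libraries. Its groups did not overlap either, and the log2 fold change was −0.35 (SE 0.17, edgeR adjusted p = 0.239), or −0.22 without treated replicate 2. Atrip, the partner that recruits ATR, had 13.6 and 14.2 CPM in the controls and 14.6 and 17.2 CPM in the treated libraries. Its log2 fold change was 0.19 (SE 0.16, edgeR adjusted p = 0.476), and it was 0.061 without treated replicate 2, 0.31 without treated replicate 1 and 0.069 at library size only. Of Atrip, 2545 bp of exon are shared with the readthrough gene Atrip-trex1 on the same strand. Chek1 (chromosome 9 from 36708482 to 36726658), the kinase that ATR activates, had 17.8 and 16.3 CPM in the controls and 15.2 and 19.3 CPM in the treated libraries. The treated libraries fell on either side of the controls, and the log2 fold change of 0.014 (SE 0.18, edgeR adjusted p = 0.969) changed sign with the scaling, to −0.11 at library size only, and ran from −0.17 without treated replicate 2 to 0.19 without treated replicate 1. Chek2, the kinase downstream of ATM, had −0.36 with both treated libraries below both controls.

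Among the nucleases that cut branched DNA, Mus81 had both treated libraries below both controls, with a log2 fold change of −0.74 (SE 0.20, edgeR adjusted p = 0.107). Its partner Eme1 did not: 50.3 and 51.7 CPM in the controls stood beside 41.3 and 51.1 CPM in the treated libraries. Slx4, the scaffold that holds several nucleases, had a log2 fold change of −0.17.

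**Figure D2:**
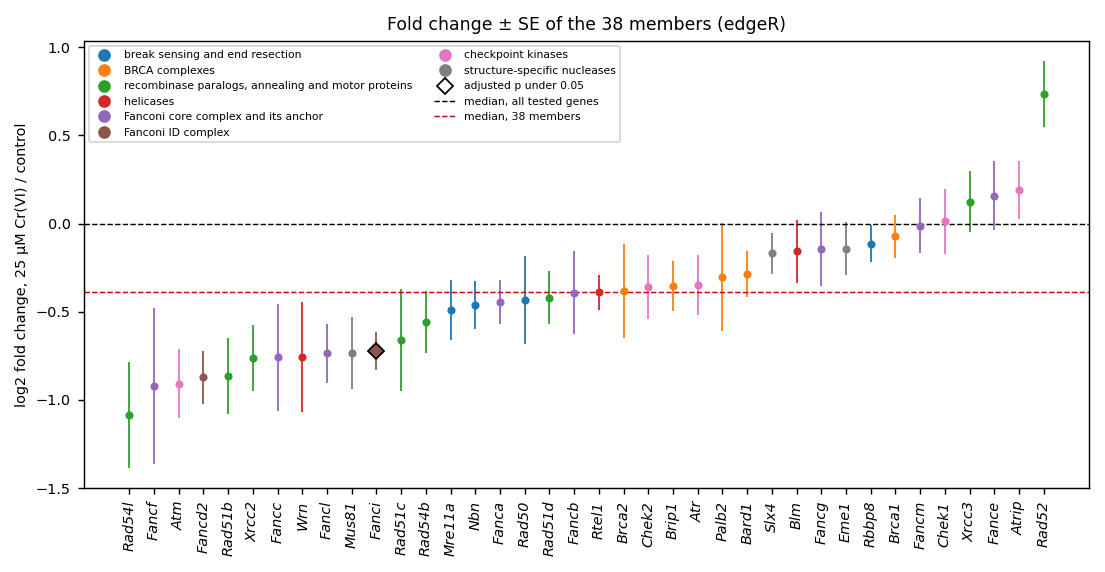
Log2 fold change of treated over control cells for each of the 38 genes, in ascending order, with bars of 1 SE from edgeR and colours for the roles. Dashed lines mark the median of the 38 genes (−0.39) and of all tested genes (−0.0047), and the outlined diamond is Fanci, the only gene with an adjusted p under 0.05.

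The treated libraries differed in how far the list lay below the controls. Relative to the control mean, the median log2 ratio of the 38 genes was −0.31 in treated replicate 1 and −0.54 in treated replicate 2, whereas over all tested genes it was 0.0022 and −0.038. For 28 genes replicate 2 was the lower of the treated libraries, and 7 were more than 1.5-fold lower there than in replicate 1. Between the controls the largest difference of a member was 0.175 on the log2 scale, for Fancm, whereas between the treated libraries it was 1.25, for Fancf. Over all alternatives 30 of the 38 genes kept their sign, 27 of them negative and 3 positive.

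Levels per exon length spread widely within the pathway. In RPKM (CPM per kilobase of exon), control means ran from 17.5 ± 0.350 for Eme1 (SD, n = 2) and 16.4 ± 0.00955 for Rtel1 down to 0.640 ± 0.0421 for Rad51b and 0.263 ± 0.0175 for Rad51c, with a median of 4.44 over the 38 genes. The place of Rad51b depended on the length used: per kilobase of its longest transcript it had 1.71 and 1.56 RPKM in the controls, close to Fancm at 1.71 and 1.51 RPKM, while Rad51c stayed lowest at 0.296 and 0.269 RPKM. Subunits of the Fanconi core complex differed too, from 7.90 ± 0.0322 RPKM for Fanca to 1.19 ± 0.0498 RPKM for Fancc. Per kilobase of its longest transcript, Fancc had 1.62 and 1.71 RPKM in the controls. Opposite-strand exons overlap Fanca over 1516 bp (Zfp276), Fancc over 1620 bp (Aopep) and Eme1 over 319 bp (Lrrc59 and Mrpl27). With the use of strand in counting not given, these levels are uncertain to that extent. Fanci, at 13.1 ± 0.146 RPKM, stood above its partner Fancd2, at 5.22 ± 0.216 RPKM. In treated cells they had 7.95 ± 0.398 and 2.85 ± 0.299 RPKM. Large kinases were low, with 2.10 ± 0.0615 RPKM for Atm and 2.02 ± 0.118 RPKM for Atr. Of the 37 neighbouring pairs in this order, 15 had overlapping control libraries and do not differ beyond their spread, Atm and Atr among them.

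**Figure D3:**
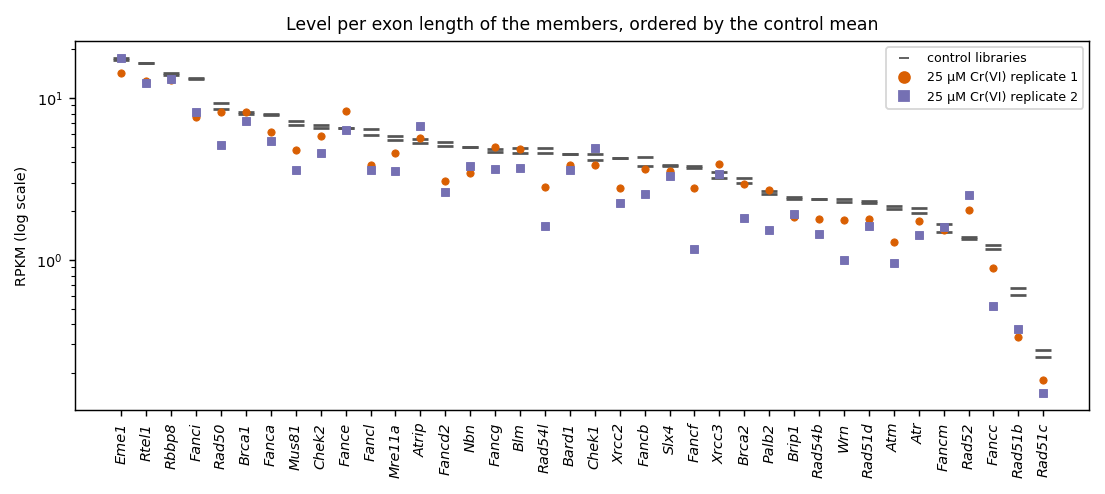
RPKM per library on a log axis for the 38 genes, ordered by the control mean. Controls (bars) run from 17.5 RPKM for Eme1 to 0.263 RPKM for Rad51c, and treated replicates (circles and squares) lie mostly at or below the bars, with Rad52 above them.

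Other repair genes had medians nearer to 0 than the 38 genes, except those of end joining. None of 117 further genes in 6 lists passed edgeR's quasi-likelihood test at an adjusted p under 0.05, where 4.63% of all tested genes did. At an unadjusted p under 0.05 in that test, 20 were lower, where 15.1% of all tested genes were. Another 4 were higher, where 2124 of all 13619 tested genes were. DESeq2 called 6, all lower, where it called 7.07% of its 14531 genes lower. Without treated replicate 1 or 2 the edgeR count was 94 or 84, in the same fits that called 77.6% or 67.2% of all tested genes. Other recombination genes (29) had a median log2 fold change of −0.094, other Fanconi and crosslink genes (16) −0.12, and other break response and checkpoint genes (24) −0.19. The 10 genes of end joining, the competing route that seals ends directly, had −0.48, and 7 of them had both treated libraries below both controls. For S phase genes (22), which mark replicating cells, the median was 0.020, and for G2/M genes (16) it was −0.16. Cell cycle genes differed between the treated libraries. Summed S phase genes stood at 2869 and 2892 CPM in the controls, 2499 CPM in treated replicate 1 and 3494 CPM in treated replicate 2, whereas summed G2/M genes stood at 2950, 2929, 2889 and 1919 CPM in the same order. The 38 genes summed to 968 and 962 CPM in the controls and to 799 and 707 CPM in the treated libraries. The part of cell cycle differences in the levels of repair genes was not tested.

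**Figure D4:**
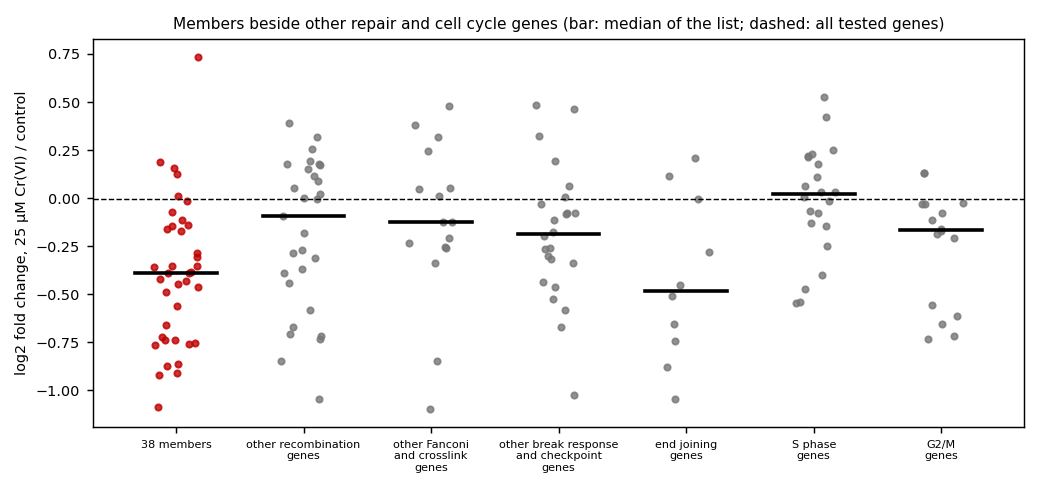
Log2 fold change of treated over control cells for each gene of the 38 (red) and of 6 other repair and cell cycle lists (grey). Black bars are list medians, −0.39 for the 38 genes and from −0.48 (end joining) to 0.020 (S phase) for the other lists, and the dashed line is the median of all tested genes.

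The 38 genes are long as a set, and the spans of the other repair lists were not summarized. Their median span was 42.4 kb (range 1.69 to 551 kb), against 15.9 kb for all counted genes with coordinates. The 19 genes above 42.4 kb had a median log2 fold change of −0.44, and 16 of them (84.2%) had both treated libraries below both controls. The other 19 had −0.36, and 11 of them (57.9%) lay below. Among all tested genes the 3914 above this span had a median of −0.16 with 45.8% below both controls, and the 9654 at or below it had 0.060 with 29.2%. Spearman's rho between span and log2 fold change was −0.28 across the 38 genes and −0.19 across 13568 tested genes. These values describe the same 4 libraries, and genes are not independent replicates.

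FAIRE peaks were few at the 38 genes, as they were over all genes. FAIRE peaks are regions that MACS scored higher in the treated than in the control library, and with 1 library each there is no replicate check. Within 1000 bp of an annotated start site, 0 of the 38 genes had the centre of a peak opened by 25 µM Cr(VI), where 1.05% of all counted genes did. In the long-term list 1 gene, Rtel1, had such a peak, where 0.850% of all genes did. Peak centres inside the gene were found for Wrn, Atm and Rad51b in the acute list (3 of 38 genes, where 5.85% of all genes had any) and for Rtel1 alone in the long-term list (1 of 38, where 1.53% had any). Wrn (151 kb), Atm (99.7 kb) and Rad51b (551 kb) span more than the median gene, and the part of span in these counts was not tested. From the nearest start site to the nearest acute peak the median distance was 214 kb for the 38 genes and 220 kb for all genes. No peak in a member reached a score of 100.

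The peak at the start of Rtel1 covered 662 bp, chr2:181319453-181320114 in mm10, with a score of 59.0 (10 times the −log10 of the MACS p-value) and its centre 59 bp downstream of a start site. It held the AP-1 sequence TGACTCA (searched on both strands, where it reads TGAGTCA on the other) at 181319658 to 181319664. That sequence occurred in 22.8% of the 860 long-term peaks, and in 5.60% of the 17757 counted genes with a promoter in the RefSeq table. These shares are over windows of unlike length and cannot be compared directly. Peaks vary in width, 662 bp here, while promoters run from 250 bases before to 50 after the start. The promoter of Rtel1 (RefSeq, GRCm38.p6, plus strand, chr2:181319474-181319773, from 250 bases before to 50 after the start) lies inside the peak. It is shown because it is the only promoter of the list at an opened peak, with the AP-1 sequence in capitals:
Rtel1 promoter: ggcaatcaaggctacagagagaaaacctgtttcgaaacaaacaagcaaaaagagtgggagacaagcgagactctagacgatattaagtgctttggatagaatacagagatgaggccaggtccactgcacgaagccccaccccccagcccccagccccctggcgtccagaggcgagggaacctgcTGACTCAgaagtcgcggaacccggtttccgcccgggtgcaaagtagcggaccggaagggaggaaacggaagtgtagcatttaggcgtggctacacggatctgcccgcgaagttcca

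A further long-term peak, of 462 bp and score 52.8, lay in an intron of Rtel1, 13413 bp downstream of the nearest start site, and held no AP-1 sequence. The RNA of Rtel1 was measured after the acute treatment only, so the opened promoter and its mRNA level of 0.763 times the control belong to different regimens.

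Acute peaks lay away from the starts of their genes. In Wrn, a 191 bp peak with a score of 50.5 was centred 1162 bp downstream of a start site, in an intron, and a 115 bp peak with a score of 53.1 lay in another intron, 103947 bp from the nearest start. Atm held an intronic peak of 81 bp with a score of 52.9, centred 28578 bp downstream of the nearest start. Rad51b held a 169 bp peak with a score of 50.1 in an annotated exon and a 211 bp peak with a score of 59.0 in an intron, 172016 and 376858 bp from the nearest start. The AP-1 sequence occurred in 1 of these 5 peaks, the intronic peak of Rad51b, and in 12.0% of all 2945 acute peaks. The Wrn peak is shown as the acute peak nearest to a start site of the list, and the Rad51b peak for its AP-1 sequence, in capitals. Both are read from GRCm38.p6 on the strand of the gene, Wrn from chr8:33384270-33384460 (minus) and Rad51b from chr12:79676951-79677161 (plus):
Wrn intron: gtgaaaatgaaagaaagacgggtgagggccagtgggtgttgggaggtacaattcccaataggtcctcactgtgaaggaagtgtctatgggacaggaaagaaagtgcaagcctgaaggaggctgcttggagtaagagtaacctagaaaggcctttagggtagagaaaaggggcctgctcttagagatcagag
Rad51b intron: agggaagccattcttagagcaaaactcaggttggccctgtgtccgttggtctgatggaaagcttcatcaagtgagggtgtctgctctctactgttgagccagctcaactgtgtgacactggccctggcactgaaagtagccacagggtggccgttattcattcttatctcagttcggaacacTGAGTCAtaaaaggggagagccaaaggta

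**Figure D5:**
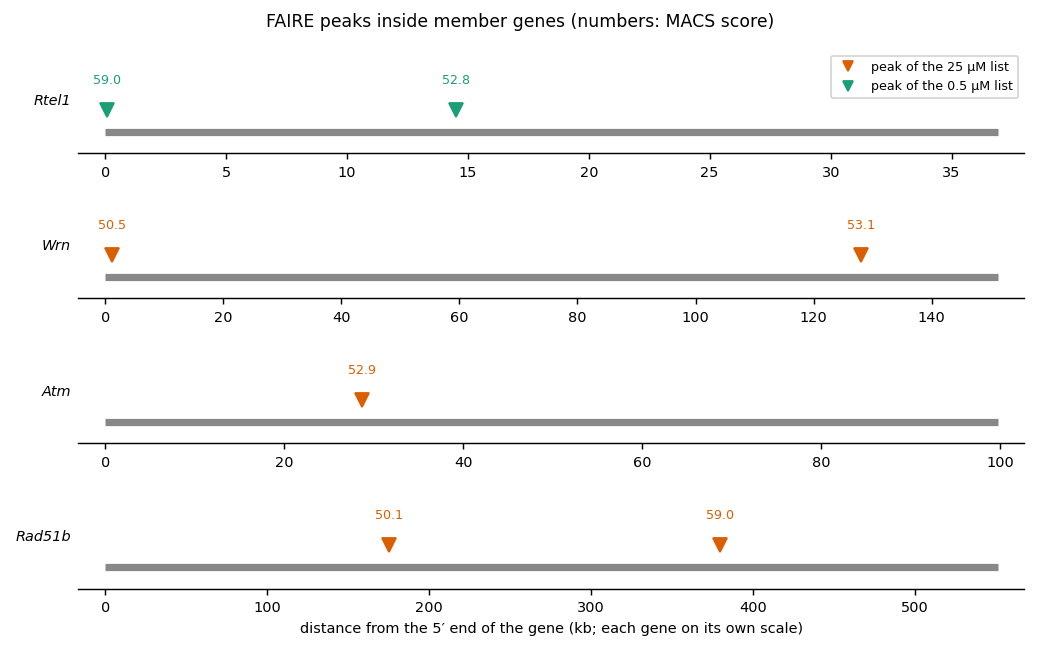
Position of the FAIRE peaks inside 4 member genes, as distance from the 5′ end of the gene in kb, each gene on its own scale, with the MACS score above each mark. Rtel1 holds 2 peaks of the 0.5 µM list, the first at its start, and Wrn, Atm and Rad51b hold 5 peaks of the 25 µM list with scores from 50.1 to 59.0.

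Several promoters of the list share a sequence of E2F factors, which drive genes for DNA synthesis and repair as cells enter S phase. Promoters were matched for 30 of the 38 genes. The sequences TTTCGCGC, TTTGGCGC, TTTCCCGC and TTTGCCGC, searched on both strands, occurred in 5 of the 30 (16.7%) and in 3.30% of all 17757 counted genes with a promoter of this length. A match is only a match of letters. The 5 genes are Bard1, Brca2, Rad51c, Fancg and Chek2, and their log2 fold changes ran from −0.66 for Rad51c to −0.15 for Fancg, none of them called. The promoters of Fanci and of Rad52 held none of these sequences. For the 5 genes, 30 bases around the match (capitals) are shown on the strand of the gene, from RefSeq promoters of GRCm38.p6 at chr1:71103163-71103192 (minus), chr5:150522442-150522471 (plus), chr11:87404477-87404506 and chr11:87404941-87404970 (minus, the 2 annotated promoters of Rad51c), chr4:43010335-43010364 (minus) and chr5:110839820-110839849 (plus):
Bard1: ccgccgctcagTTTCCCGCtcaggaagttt
Brca2: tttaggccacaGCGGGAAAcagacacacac
Rad51c promoter 1: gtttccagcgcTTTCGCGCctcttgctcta
Rad51c promoter 2: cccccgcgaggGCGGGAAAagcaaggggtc
Fancg: tttcttttcagTTTCCCGCggaaccgtctc
Chek2: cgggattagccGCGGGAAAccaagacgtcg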

How the data were processed

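RNA-seq was analysed in 4 libraries of Hepa-1 cells and FAIRE-seq as peak lists of 2 regimens. Gene counts were deposited by the authors as raw counts per Entrez gene, made by aligning reads to mm10 with TopHat; the counting tool, annotation and use of strand are not given in the sources used here. The deposited peak score is that of MACS, which the authors ran with default parameters on BWA alignments of 1 treated and 1 control library; no read depth goes with it. The submitters' processing notes also name bcl2fastq, CASAVA 1.8 and DESeq.

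Counts were normalized by TMM, filtered with filterByExpr and tested with edgeR (glmQLFit and glmQLFTest, no block) over all genes that passed; p-values are two-sided and Benjamini-Hochberg adjusted, with calls under 0.05. The SE is the absolute log2 fold change divided by the square root of F. CPM and RPKM use TMM-scaled library sizes and union exon length from RefSeq (GRCm38.p6, the assembly of mm10), which named all but 98 of the 23403 genes. The edgeR step was tried on simulated counts with known fold changes. The 38 genes and the other lists were chosen with earlier results of these data known. Values in every library are given for called members, the 5 largest positive and 5 largest negative fold changes, members with a peak, and Brca1, Brca2, Fancd2, Atm, Atr and Chek1, 16 genes in all; other members are named for their role. Alternatives were other scalings, no filter, DESeq2, a replicate block, each library left out, other peak rules, longest transcript length and fewer E2F sequences; upper-quartile scaling was added after seeing the data. Versions were R 4.3.3, edgeR 4.0.16, DESeq2 1.42.0, Python 3.11.15, pandas 2.3.3, scipy 1.17.1, pysam 0.24.0 and matplotlib 3.10.9.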

Additional observations from a re-analysis of the deposited data

How the results depend on the processing

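The count of called members was the least stable result. Against 1 in the edgeR test (1 lower, 0 higher), it was 0 with RLE size factors, 4 with DESeq2 (all lower) and 6 with a replicate block (all lower). With each library left out it ran from 0 to 33, from 0 to 30 lower and from 0 to 3 higher. The count of other pathway genes, 0 in the edgeR test, was 6 with DESeq2, 16 with the replicate block and ran from 0 to 94 with each library left out. Over all genes the counts were 631, 2000 with DESeq2 and 2969 with the block, and ran from 287 to 10995 with each library left out. The edgeR test and the block covered 13619 genes, and DESeq2 covered 14531. Replicate numbers come from the sample names only, and the correlation across genes of the deviations of same-numbered libraries was 0.0909. That value rests on 1 difference per group and cannot show whether same-numbered libraries were paired or shared a batch. The median of the 38 genes stayed negative throughout, from −0.53 to −0.32; scaling by library size only gave −0.49 and shifted the all-gene median to −0.11. Among 160 refits of the 16 named genes, 119 kept sign and side of the threshold, 3 lost a call and 6 turned sign. The rest crossed to a call, only with DESeq2, the replicate block or a lone treated library. With a lone treated library the only spread is that between the controls, so those crossings add no support for the named genes. With each library left out Brca1 ran from −0.15 to 0.014 (positive without treated replicate 2), Fance from −0.046 (without treated replicate 1) to 0.34 and Chek1 from −0.17 to 0.19. Chek1 turned to −0.11 at library size only, −0.017 without the filter, −0.17 without treated replicate 2 and −0.067 without control replicate 2. The cause was not tested. With the longest transcript as length the median level was 4.89 RPKM. At a score of at least 100, 0 members kept a peak at a start site or in the gene in either list; the other peak rules and the shorter E2F list did not change a count. Depth limits Rad51c most, at 19 to 43 counts.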

Other observations

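Outside the 38 genes, DESeq2 but not edgeR called 6 of 117 pathway genes, all lower, where DESeq2 called 7.07% of its 14531 genes lower. The 6 are named here after their values were seen: H2afx, Faap24, Nabp1, Dna2, Mms22l and Top2a. H2afx, which codes for the histone variant phosphorylated at DNA breaks, had 85.7 and 87.6 CPM in the controls and 50.7 and 34.5 CPM in the treated libraries. Faap24, a partner of FANCM, had 16.7 and 17.0 CPM in the controls and 9.87 and 5.83 CPM in the treated libraries. For both genes the groups did not overlap, with log2 fold changes of −1.02 (SE 0.21) and −1.10 (SE 0.29).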
